A study of Mus musculus with 8 samples.

Results

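Moxd1, Pitx3, Eps8l2 and Grk5 are protein-coding mouse genes of unrelated families, and all 4 had far more counts in the libraries labelled Bmal1-/- than in the Bmal1+/+ libraries. They are 4 of the 55487 genes counted. They were picked for these gains, without a numeric limit, so their levels are given as a description with no test.

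RNA was sequenced from the stromal vascular fraction of subcutaneous tumours, which are the cells left after GFP-labelled MC38 cells, a mouse colon cancer line, were removed by sorting. The tumours grew in mice with intact Bmal1 (Bmal1+/+, 4 libraries) and in mice carrying a Bmal1 knockout throughout the body (Bmal1-/-, 4 libraries), both bred from heterozygous founders, while the implanted cells kept their own Bmal1 in both groups. No drug was given to these groups as far as the labels state, and age, sex and strain are not given in the sources used here. The comparison asks which transcripts of the tumour host differ when this clock gene is deleted.

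BMAL1 pairs with CLOCK on E-box sequences and drives daily rhythms of transcription, with the ROR and REV-ERB receptors and the D-box factors as further arms of the clock. Moxd1 encodes a copper-dependent monooxygenase-like protein of the endoplasmic reticulum related to dopamine beta-hydroxylase, and Pitx3 encodes a homeodomain transcription factor best known from midbrain dopamine neurons and the lens. Eps8l2 encodes an adaptor of the EPS8 family that links receptors and Rac signalling to actin, and Grk5 encodes a kinase that phosphorylates activated G protein-coupled receptors, which then bind arrestins.

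Several measurements of the whole series bear on every value below. Bmal1 itself (Arntl) had between 444 and 524 counts in the libraries labelled Bmal1-/- and between 15 and 45 in the Bmal1+/+ libraries, against the labels, so the former are called the libraries labelled Bmal1-/- throughout. Counts are per gene and do not show whether deleted exons were read. Of 19 clock genes 6 were higher and 9 lower in these libraries, beside 14.9% higher and 16.2% lower among all tested genes. Nr1d1 and Dbp, which BMAL1 is known to drive, had log2 fold changes of -3.97 and -4.32. The paper does not state the hour of day at which tissue was collected, and its part in these values was not tested. Both group names are the labels only: whether labels were exchanged was not tested, and an exchange would turn every direction given here. Xist, the RNA of the inactive X chromosome, ranged from 842 to 1093 CPM (TMM-normalised counts per library total) in the Bmal1+/+ libraries and from 0.142 to 0.748 CPM in those labelled Bmal1-/-, and the Y-linked genes Ddx3y, Eif2s3y, Kdm5d and Uty had 0 counts in every Bmal1+/+ library. In the libraries labelled Bmal1-/- Ddx3y had between 816 and 957 counts. By these transcripts every Bmal1+/+ library looked female and every library labelled Bmal1-/- male. Sex and genotype label therefore cannot be told apart here for any gene. Of 12 male-biased liver genes 12 were higher in the libraries labelled Bmal1-/- and of 14 female-biased liver genes 14 were lower, beside 14.9% higher and 16.2% lower among all tested genes. These lists were chosen with earlier results of these data known. The 10 hepatocyte markers held between 9.64 and 10.7% of all counts in Bmal1+/+ libraries and between 4.96 and 5.66% in the others, while the 10 fibroblast markers summed to between 139 and 221 CPM and between 104.8 and 109.9 CPM, the 8 macrophage and leukocyte markers to between 247 and 305 CPM and between 98.4 and 190.5 CPM, and the 6 endothelial markers to between 137 and 169.5 CPM and between 79.4 and 115 CPM. The lower hepatocyte sum came from albumin (Alb), which went from 69143 to 16114 CPM: of the 10 markers it alone was called lower, Apoa1 was called higher, and the median log2 fold change was -0.12. Fap, which marks tumour fibroblasts, had at most 7 counts in any library, and the colon marker Cdx2 was at 0 in all. Hepatocyte transcripts far above those of stromal cells go against the labelled tissue, a stromal fraction of tumours under the skin, so the cells behind the levels below are not known. In bulk RNA, more cells of a type and more RNA per cell cannot be told apart. The part of sex and of marker levels in the results below was not tested.

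The promoters are shown because the genes were chosen together for a gain in a clock gene knockout, and clock factors act on such sequences. They are RefSeq sequences of GRCm38.p6, 5′ to 3′ on the gene's strand, covering the 250 bases before the start as far as these lie outside the annotated gene body: chr10:24223267-24223516 (+) for Moxd1, chr19:46148327-46148575 (-) for Pitx3, chr7:141338752-141338879 (+) for Eps8l2 and chr19:60889499-60889748 (+) for Grk5. All 4 genes matched the RefSeq table. Capitals mark the only motif match found.
Moxd1: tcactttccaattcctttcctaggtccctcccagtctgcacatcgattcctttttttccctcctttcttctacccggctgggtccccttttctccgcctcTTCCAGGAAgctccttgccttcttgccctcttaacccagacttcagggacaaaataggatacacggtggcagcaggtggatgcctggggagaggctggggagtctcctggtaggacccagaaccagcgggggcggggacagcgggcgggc
Pitx3: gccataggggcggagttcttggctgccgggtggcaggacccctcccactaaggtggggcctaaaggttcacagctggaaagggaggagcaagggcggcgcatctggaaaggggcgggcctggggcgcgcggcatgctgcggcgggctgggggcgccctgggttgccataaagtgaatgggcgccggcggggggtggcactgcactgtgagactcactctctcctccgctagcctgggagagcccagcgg
Eps8l2: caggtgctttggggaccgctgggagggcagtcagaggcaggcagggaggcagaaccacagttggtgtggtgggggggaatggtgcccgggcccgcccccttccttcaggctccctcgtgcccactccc
Grk5: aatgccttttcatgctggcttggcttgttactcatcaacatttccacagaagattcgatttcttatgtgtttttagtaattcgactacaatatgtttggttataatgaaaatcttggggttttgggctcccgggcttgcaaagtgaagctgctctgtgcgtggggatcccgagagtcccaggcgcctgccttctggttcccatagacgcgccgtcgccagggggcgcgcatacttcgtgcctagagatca

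Each 250-base window was searched on both strands for the E-box CACGTG, the D-box TTANGTAA, the ROR and REV-ERB core AGGTCA and the STAT site TTCNNNGAA, where N is any base. The single match was a STAT site, TTCCAGGAA, between 150 and 142 bases before the start of Moxd1, and it overlapped no other motif. The STAT site is not one of the clock elements described above, and no match to those was found. Among 32851 promoters searched in the same way, 7.0% held the STAT site, 6.0% the E-box, 2.1% the D-box and 14% the AGGTCA core. The share of G and C was 58.4% for Moxd1, 68.8% for Pitx3, 69.2% for Eps8l2 and 49.6% for Grk5, beside a median of 52.4% over all promoters. A match of letters is a description and not a binding site.

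Moxd1 (ENSMUSG00000020000) lies on chromosome 10 of GRCm38 from 24223517 to 24302790 on the plus strand, with 13 exon blocks and no exon shared with another gene. It had 0 counts in each of the 4 Bmal1+/+ libraries. The libraries labelled Bmal1-/- held 1487, 3292, 3616 and 8743 counts in replicates 1 to 4, or 92.7, 228, 257 and 592 CPM. The groups were far apart, yet the knockout-labelled libraries were also far from each other: replicate 4 was well above the rest and replicate 1 well below. The mean was 292 ± 212 CPM (SD, n = 4), which was at least 1580.1-fold higher than a floor of 3 counts in each Bmal1+/+ library, a mean of 0.185 CPM. Without replicate 4 the mean was 192 ± 87.6 CPM (SD, n = 3) and the bound at least 1040.0-fold.

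Pitx3 (ENSMUSG00000025229) lies on chromosome 19 from 46135685 to 46148326 on the minus strand, with 5 exon blocks. It too had 0 counts in each of the 4 Bmal1+/+ libraries. In the libraries labelled Bmal1-/- its counts were 972, 655, 498 and 200 in replicates 1 to 4, or 60.6, 45.3, 35.4 and 13.5 CPM. Replicate 4, the highest library for Moxd1, was the lowest for Pitx3, and replicate 1 was the reverse. The mean of 38.7 ± 19.7 CPM (SD, n = 4) was at least 209-fold above the same floor, and without replicate 4 the mean was 47.1 ± 12.7 CPM (SD, n = 3).

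Eps8l2 (ENSMUSG00000025504) lies on chromosome 7 from 141338880 to 141363020 on the plus strand, with 22 exon blocks. Unlike Moxd1 and Pitx3 it was counted in every library. The Bmal1+/+ libraries held 207, 157, 186 and 221 counts (12.4, 10.0, 12.5 and 12.3 CPM) and the libraries labelled Bmal1-/- held 1684, 1988, 1668 and 1561 counts (105, 137, 118 and 106 CPM). Both groups were tight, and the lowest knockout-labelled library was 8.42-fold above the highest Bmal1+/+ library. Means were 11.8 ± 1.18 and 117 ± 15.2 CPM (SD, n = 4 each), a 9.88-fold difference with a log2 fold change of 3.30 (SE 0.13).

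Grk5 (ENSMUSG00000003228) lies on chromosome 19 from 60889749 to 61095968 on the plus strand, with 17 exon blocks. The Bmal1+/+ libraries held 76, 63, 61 and 62 counts (4.57, 4.03, 4.09 and 3.45 CPM) and the libraries labelled Bmal1-/- held 1174, 873, 744 and 717 counts (73.2, 60.3, 52.9 and 48.5 CPM). Replicate 1 was highest in both groups, and the groups were separated by a factor of 10.6 between their nearest libraries. Means were 4.03 ± 0.459 and 58.7 ± 10.8 CPM (SD, n = 4 each), a 14.6-fold difference with a log2 fold change of 3.86 (SE 0.16).

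**Figure D1:**
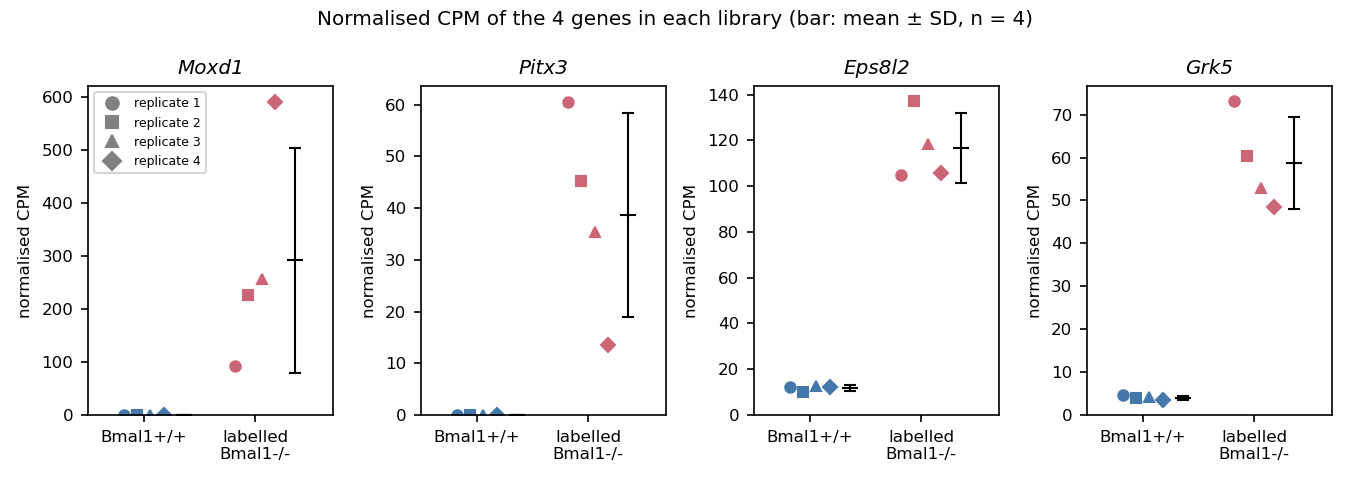
Normalised CPM of Moxd1, Pitx3, Eps8l2 and Grk5 (vertical axes, linear, a scale of its own for each gene) in the 4 Bmal1+/+ libraries and the 4 libraries labelled Bmal1-/-, with 1 marker shape per replicate number and bars for the mean ± SD. Moxd1 and Pitx3 lie at 0 in every Bmal1+/+ library and scatter widely in the other group, whereas Eps8l2 and Grk5 start from a low level and form tight groups.

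The CPM of the groups did not overlap for any of the 4 genes, a pattern seen in the higher direction for 16.7% of the 14353 genes tested, and nothing is read from this because the genes were picked on the same contrast. As background, 5.41% of all tested genes were higher and 8.71% lower by the study's criterion, an absolute log2 fold change above 1 with an unadjusted p below 0.05. Moxd1 and Pitx3 belong to a short list: only 6 genes had 0 counts in all Bmal1+/+ libraries and at least 100 counts in each library labelled Bmal1-/-, and the other 4 are the Y-linked Ddx3y, Eif2s3y, Kdm5d and Uty. That list rests on a limit of exactly 0 counts and on the values for which Moxd1 and Pitx3 were picked, so nothing is read from its length. Cyp4a12b, a fatty acid hydroxylase gene outside the Y chromosome, missed it narrowly. It had at most 2 counts in any Bmal1+/+ library and between 385 and 1566 in those labelled Bmal1-/-. In the opposite direction the list held 1 gene, Sult2a2, a sulfotransferase.

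Levels can be compared between genes only per length, and FPKM, the fragment count scaled by library total and transcript length, was used for this. In the libraries labelled Bmal1-/- Moxd1 had 82.9 ± 58.3 FPKM, Pitx3 19.7 ± 10.3, Eps8l2 14.8 ± 2.12 and Grk5 7.93 ± 1.61 (SD, n = 4 each). Ranges of Moxd1 (27.0 to 165) and Pitx3 (6.66 to 31.2) overlapped, and the range of Pitx3 also took in that of Eps8l2 (13.0 to 17.7) and overlapped that of Grk5 (6.35 to 10.0). Moxd1 was above Eps8l2 and Grk5 in every library of the group, and Eps8l2 was above Grk5. In the Bmal1+/+ libraries Eps8l2 had 1.47 ± 0.168 FPKM and Grk5 0.534 ± 0.0689, also without overlap. Because the lengths behind the FPKM values differ from those of the annotation used here (1994 against 1526 bases for Pitx3), CPM per kilobase of annotated exon was computed as well and gave the same order, with 91.4 ± 66.4, 25.4 ± 12.9, 21.7 ± 2.82 and 8.32 ± 1.53.

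The 4 genes fell apart in how much they varied among the libraries labelled Bmal1-/-. Highest over lowest CPM was 6.39 for Moxd1 and 4.47 for Pitx3, but 1.31 for Eps8l2 and 1.51 for Grk5. The SD of log2 CPM over these 4 libraries was 1.09 for Moxd1, 0.93 for Pitx3, 0.26 for Grk5 and 0.18 for Eps8l2, beside a median of 0.23 over the 13148 genes whose group mean reached 1 CPM. A larger SD was found for 1.72% of these genes against Moxd1 and for 2.62% against Pitx3, but for 44.35% against Grk5 and 64.4% against Eps8l2. In CPM the libraries also came in different orders. Replicate 1 was highest for Pitx3 and Grk5 and lowest for Moxd1, and replicate 4 was highest for Moxd1 and lowest for Pitx3 and Grk5. Eps8l2 was lowest in replicate 1 by a small margin (105.0 against 105.7 CPM in replicate 4). In FPKM its lowest library was replicate 4 (12.99 against 13.51 in replicate 1). Replicate 4 stood apart in acute-phase transcripts, the plasma proteins that the liver makes in inflammation, which took 3.62% of its counts and between 0.176 and 0.429% of any other library. Saa1, one of these, reached 7737 CPM in this library and no more than 17.6 CPM in the others labelled Bmal1-/-. Whether this bears on the levels of the 4 genes was not tested, and the gains without replicate 4 were at least 1040.0-fold, at least 254.5-fold, 10.2-fold and 15.4-fold for Moxd1, Pitx3, Eps8l2 and Grk5.

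**Figure D2:**
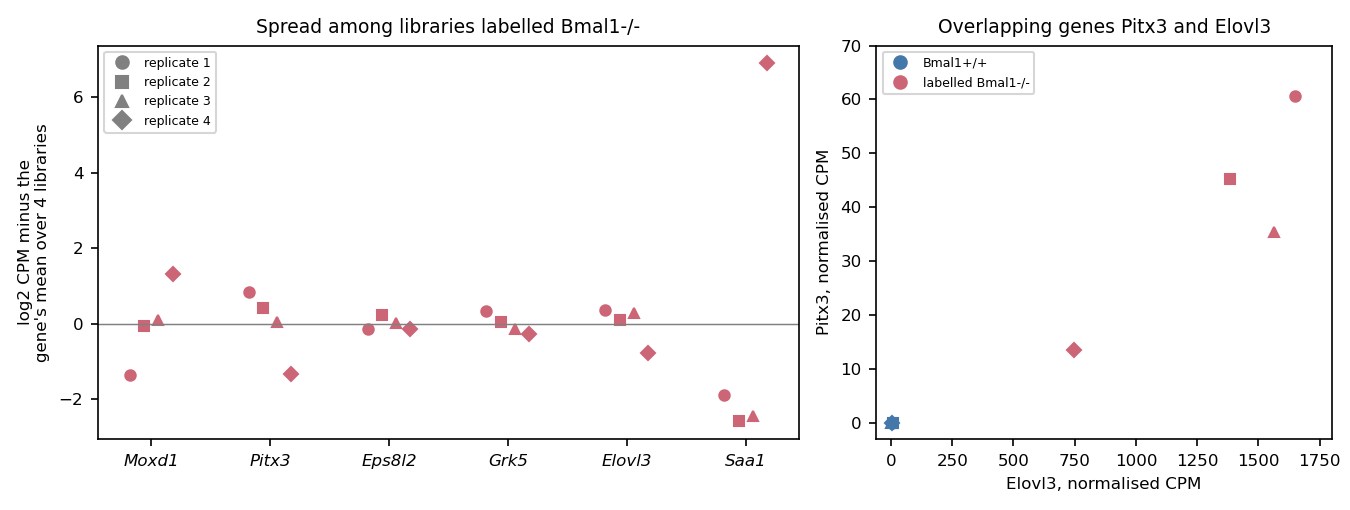
Left, log2 CPM of the 4 genes, Elovl3 and Saa1 in each library labelled Bmal1-/-, as the difference from that gene's mean over the 4 libraries, with 1 marker shape per replicate; right, Pitx3 against Elovl3 CPM in all 8 libraries, both axes linear. Moxd1 and Pitx3 spread in opposite directions for replicates 1 and 4, Eps8l2 and Grk5 stay near 0, and Saa1 is far higher in replicate 4.

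Pitx3 and Eps8l2 each overlap a gene on the other strand, so part of their reads may be shared, as the use of strand in the counting is not stated. Elovl3, a fatty acid elongase that is male-biased in mouse liver, lies on the plus strand from 46131897 to 46135694 and shares its last 10 bases with the end of Pitx3. Its counts were 44, 107, 26 and 70 in the Bmal1+/+ libraries and 26485, 20044, 22026 and 11032 in the libraries labelled Bmal1-/-, or 3.78 ± 2.22 and 1337 ± 409 CPM (SD, n = 4 each), with a log2 fold change of 8.46 (SE 0.51, adjusted p = 5.3e-06 by the quasi-likelihood test of edgeR, adjusted over all tested genes by Benjamini and Hochberg; below, edgeR adjusted p). Pitx3 counts were 3.67, 3.27, 2.26 and 1.81% of Elovl3 counts in the libraries labelled Bmal1-/-, so the share was not constant and was lowest in the library where both genes were lowest. Reads that run on from Elovl3 into Pitx3 cannot be separated from Pitx3 transcripts in counts per gene.

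Eps8l2 shares 1729 bases of exon with B230206H07Rik, a non-coding transcript on the minus strand from 141359141 to 141365110. B230206H07Rik had 15, 5, 13 and 5 counts in the Bmal1+/+ libraries and 108, 82, 86 and 42 in the libraries labelled Bmal1-/-, with a log2 fold change of 3.17 (SE 0.42, edgeR adjusted p = 0.00051) close to the 3.30 of Eps8l2. Its counts were between 2.26 and 7.25% of those of Eps8l2 in Bmal1+/+ libraries and between 2.69 and 6.41% in the others and the ranges overlapped. The level of the antisense transcript is therefore uncertain. Zfp950, a zinc finger gene, overlaps the body of Grk5 over 42129 bases but shares no exon, and it did not pass the test (14.6 ± 1.25 and 13.3 ± 2.19 CPM, log2 fold change -0.14, SE 0.14, edgeR adjusted p = 0.50). A pseudogene and a small RNA inside Grk5, Gm9529 and Gm22520, had at most 3 counts and were not tested.

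Most tested genes within 100 kb of the 4 genes did not pass the test. Of 41 such genes 24 were tested, 6 were higher and 1 was lower at an adjusted p below 0.05, beside 14.9% higher and 16.2% lower among all tested genes, and the median log2 fold change was 0.26 beside 0.02 over all. Elovl3 and B230206H07Rik were 2 of the 6. Around Moxd1 the only tested neighbour was Stx7, a syntaxin of endosomes that ends 33294 bases before it, with 23.7 ± 1.66 and 34.2 ± 2.41 CPM and a log2 fold change of 0.53 (SE 0.10, edgeR adjusted p = 0.0034). On the far side of Pitx3, Gbf1, an exchange factor for Arf proteins 4182 bases away, went from 48.8 ± 5.37 to 79.8 ± 15.0 CPM (log2 fold change 0.71, SE 0.15, edgeR adjusted p = 0.0061), while Nolc1 did not pass the test (0.21, edgeR adjusted p = 0.22). Both changes were below 1 on the log2 scale.

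Next to Eps8l2, Tmem80 at 1723 bases (log2 fold change 0.31, edgeR adjusted p = 0.37) and Taldo1, an enzyme of the pentose phosphate pathway (0.20, edgeR adjusted p = 0.25), did not pass the test. Prdx3, a mitochondrial peroxiredoxin 15192 bases before Grk5 (log2 fold change -0.37, edgeR adjusted p = 0.079), and the pseudogene AC165327.2 behind it (0.19, edgeR adjusted p = 0.52) did not pass either. The 3 remaining calls, named after their values were seen, were Gatd1 near Eps8l2 (log2 fold change 0.43, edgeR adjusted p = 0.048, lost under 10 alternatives with edgeR adjusted p up to 0.128), the initiation factor Eif3a near Grk5 (0.43, edgeR adjusted p = 0.0063) and the interferon regulator Irf7 near Eps8l2, which was lower (-0.92, edgeR adjusted p = 0.0095).

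**Figure D3:**
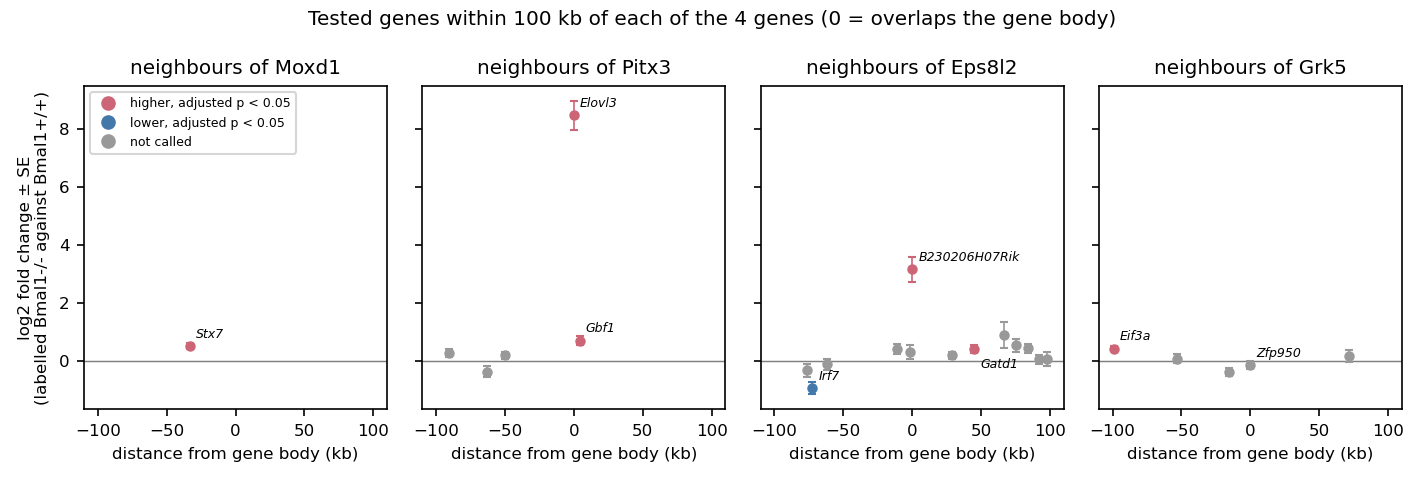
Log2 fold change ± SE (vertical axis, libraries labelled Bmal1-/- against Bmal1+/+) of the 24 tested genes within 100 kb of Moxd1, Pitx3, Eps8l2 and Grk5, against their distance from the gene body in kb (0 for overlap), coloured by the call at an adjusted p below 0.05. Elovl3 at 8.46 and B230206H07Rik at 3.17, which overlap Pitx3 and Eps8l2, stand above all other neighbours.

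The families and pathways of the 4 genes were examined in 6 lists of 98 genes, of which 70 were tested, 14 were higher and 21 lower. This is 50.0% called, beside 31.1% of all tested genes, with a median log2 fold change of -0.02 beside 0.02. The lists were chosen with earlier results of these data known, so nothing is read from the larger share. None of the close paralogs passed the test as higher.

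Moxd1 belongs with Dbh, which makes noradrenaline from dopamine, Moxd2 and Pam, which amidates peptides. Dbh and Moxd2 had 0 counts in every library, as did Th, the first enzyme of dopamine synthesis. Pam was lower, with 21.8 ± 5.39 and 13.6 ± 2.00 CPM (log2 fold change -0.68, SE 0.19, edgeR adjusted p = 0.021, and up to 0.060 when 1 of 4 libraries was left out). Of the 13 genes of copper monooxygenases and catecholamine metabolism 9 were tested, 2 were higher and 4 lower, with a median of -0.22. Both monoamine oxidases were lower: Maob had 334.5 ± 45.5 and 112 ± 8.49 CPM (-1.58, SE 0.13, edgeR adjusted p = 2.7e-05) and Maoa 14.7 ± 0.770 and 5.11 ± 0.748 CPM (-1.52, SE 0.14, edgeR adjusted p = 5.2e-05). Gch1, which starts the synthesis of the cofactor tetrahydrobiopterin, was lower as well (-0.87, SE 0.10, edgeR adjusted p = 0.0002). Ddc, the aromatic amino acid decarboxylase, rose from 25.5 ± 8.495 to 94.0 ± 23.5 CPM (1.88, SE 0.26, edgeR adjusted p = 0.00066).

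The copper on which such enzymes depend is handled by 13 further listed genes, all tested, of which 2 were higher and 3 lower, with a median of 0.04. Sco2, which delivers copper to cytochrome oxidase, went from 13.3 ± 2.44 to 51.7 ± 15.0 CPM (1.95, SE 0.22, edgeR adjusted p = 0.0002). Ceruloplasmin (Cp), the copper protein of plasma, went from 733 ± 93.6 to 1702 ± 783 CPM (1.22, SE 0.27, edgeR adjusted p = 0.0082), with 2877 CPM in replicate 4 against 1306 to 1319 CPM in the other libraries labelled Bmal1-/-. The importer Slc31a1 (-0.41, SE 0.10, edgeR adjusted p = 0.013) and the export pumps Atp7b (-0.36, SE 0.10, edgeR adjusted p = 0.022) and Atp7a (-0.61, SE 0.18, edgeR adjusted p = 0.026) were lower, and the calls of Atp7b and Atp7a were lost under 2 and 4 alternatives (edgeR adjusted p up to 0.051 and 0.075).

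Around Pitx3, most partners known from midbrain and lens were not found. Of 20 listed genes 8 were tested, and 10 had 0 counts in all 8 libraries, among them Lmx1a, Lmx1b, En1, Otx2, Th, Slc6a3, Drd2, Foxe3 and Mip. Pitx1 had at most 2 counts. Of the lens markers Cryaa, Bfsp2 and Lim2 were at 0, and of the neuronal markers Snap25 was at 0, and the 6 neuronal markers together reached at most 2.21 CPM in any library. Listed genes that did pass were Prox1, a homeodomain factor of liver, lymphatics and lens (96.1 ± 17.9 and 156 ± 25.1 CPM, 0.70, SE 0.16, edgeR adjusted p = 0.01), Maf, a bZIP factor (72.6 ± 3.17 and 39.9 ± 6.86 CPM, -0.86, SE 0.13, edgeR adjusted p = 0.00093), and the orphan receptor Nr4a2 (1.48 ± 0.343 and 0.319 ± 0.172 CPM, -2.17, SE 0.42, edgeR adjusted p = 0.0039). Nr4a2 had between 1 and 7 counts in the libraries labelled Bmal1-/-, which reach the floor of 3 counts, so the size of its change is uncertain. The median over the tested genes was -0.13.

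The EPS8 paralogs of Eps8l2 were low and did not pass the test. Eps8 had 3.03 ± 1.40 and 1.77 ± 0.499 CPM (-0.77, SE 0.34, edgeR adjusted p = 0.11), Eps8l1 had 1.56 ± 0.609 and 1.66 ± 0.313 CPM (0.10, SE 0.33, edgeR adjusted p = 0.85), and Eps8l3 had at most 3 counts. Of 22 genes of the family and its actin partners 18 were tested, 2 were higher and 5 lower, with a median of -0.05. The partners that fell were the actin bundlers Espn (-1.97, SE 0.40, edgeR adjusted p = 0.0048) and Fscn1 (-0.64, SE 0.20, edgeR adjusted p = 0.036), the membrane-bending protein Baiap2l1 (-0.71, SE 0.19, edgeR adjusted p = 0.019), Abi2 (-0.95, SE 0.26, edgeR adjusted p = 0.021) and, named after its value was seen, the leukocyte GTPase Rac2 (-0.97, SE 0.32, edgeR adjusted p = 0.042). Abi3 and Baiap2, likewise named after their values were seen, rose (1.00 and 0.40, edgeR adjusted p = 0.028 and 0.034). All calls of this list except Espn were lost under 1 to 9 alternatives, with edgeR adjusted p up to 0.101. The macrophage and leukocyte markers, 5 of 8 of which were lower, moved in the same direction as Rac2, and their part in its change was not tested.

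No other kinase of the family passed the test. Grk2 had 34.1 ± 4.95 and 33.7 ± 3.89 CPM (-0.014, SE 0.13, edgeR adjusted p = 0.95) and Grk6 14.9 ± 4.68 and 14.7 ± 1.48 CPM (-0.016, SE 0.20, edgeR adjusted p = 0.96). Neither Grk3 (5.62 ± 1.38 and 4.06 ± 2.38 CPM, edgeR adjusted p = 0.37, but 0.042 without replicate 4 labelled Bmal1-/-) nor Grk4 (0.945 ± 0.280 and 1.41 ± 0.435 CPM, edgeR adjusted p = 0.19) passed, and Grk1 had at most 1 count. In CPM, Grk5 was thus below Grk2 and Grk6 in the Bmal1+/+ libraries and above them in the others, on a scale that takes no account of length. Of 9 genes of kinases and arrestins 6 were tested, and the 1 call was Arrb2, a beta-arrestin that binds phosphorylated receptors, which fell from 14.7 ± 1.69 to 9.55 ± 1.00 CPM (-0.63, SE 0.13, edgeR adjusted p = 0.006).

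Listed G protein-coupled receptors, the class of protein that such kinases act on, changed both ways. Whether Grk5 acts on any of them was not tested. Of 23 listed receptors of liver and stroma 17 were tested, 7 were higher and 6 lower, with a median of 0.26. Among all tested genes 14.9% were higher and 16.2% lower. The list was chosen with earlier results of these data known, so nothing is read from its share. The vasopressin receptor Avpr1a rose from 11.6 ± 2.21 to 87.3 ± 33.1 CPM (2.91, SE 0.26, edgeR adjusted p = 4.7e-05), the thrombin receptor F2r from 21.6 ± 1.84 to 72.9 ± 14.3 CPM (1.76, SE 0.15, edgeR adjusted p = 3.5e-05) and the adenosine receptor Adora1 from 10.8 ± 1.42 to 23.9 ± 5.71 CPM (1.14, SE 0.17, edgeR adjusted p = 0.0011). The adrenergic receptor Adrb3 fell from 5.09 ± 1.26 to 2.52 ± 0.119 CPM (-1.01, SE 0.20, edgeR adjusted p = 0.0049).

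**Figure D4:**
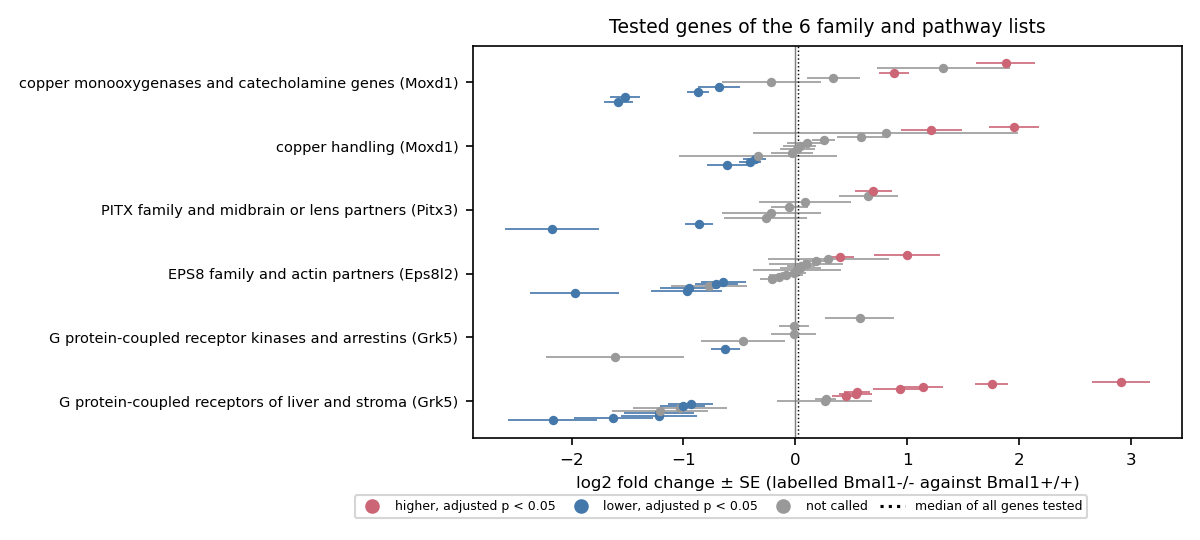
Log2 fold change ± SE (horizontal axis, libraries labelled Bmal1-/- against Bmal1+/+) of the tested genes of the 6 family and pathway lists, coloured by the call at an adjusted p below 0.05, with the median of all tested genes as a dotted line. In each list except that of kinases and arrestins, which holds 1 lower call, calls lie on both sides of 0, and no gene exceeds the 2.91 of Avpr1a.

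Genes whose pattern was most like that of each member were taken by the root mean square difference of log2 CPM, centred on each gene's own mean over the 8 libraries. This measure mostly follows the difference between the groups, for which the members were picked, so it is a description. Moxd1 had no close match: the nearest were Ddx3y (1.20), the major urinary protein gene Mup14 (1.46), Elovl3 (1.59), Eif2s3y (1.598) and the ferritin receptor Scara5 (1.61). Mup14 went from 1.03 ± 0.644 to 542 ± 377 CPM and Scara5 from 0.2504 ± 0.210 to 102 ± 49.2 CPM. Mup14 belongs to a family of near-identical copies, so its level is uncertain.

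Pitx3 was closest to Eif2s3y (0.36), to the fatty acid hydroxylases Cyp4a12b (0.48) and Cyp4a12a (0.56), to Elovl3 (0.62) and to Kdm5d (0.64). All 5 are Y-linked or male-biased in mouse liver by the lists used here. As the measure follows the difference for which Pitx3 was picked, and the lists were chosen with earlier results known, nothing is read from this. Pitx3, Moxd1, Eif2s3y, Kdm5d and Ddx3y had 0 counts in every Bmal1+/+ library. Their differences in log2 CPM therefore rest in part on its prior count of 2. Cyp4a12a had at most 5 counts in any Bmal1+/+ library and between 448 and 1690 in those labelled Bmal1-/-. Cyp4a12a and Cyp4a12b are close copies whose reads the counting could split.

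The matches of Eps8l2 and Grk5 were nearer, and none was from the sex-linked or male-biased lists. As the measure follows the size of the difference, the Y-linked genes and Elovl3, whose differences were far larger, could hardly be among them. Nothing is therefore read from their absence. Eps8l2 was closest to the complement component C9 (0.23, from 141 ± 21.6 to 1304 ± 113 CPM), Sowahb (0.24), Gm30906 (0.26), the cytochrome P450 Cyp2u1 (0.28) and the tetraspanin Tspan33 (0.28). Grk5 was closest to Dtx4, a ubiquitin ligase of the Notch pathway (0.21, from 5.00 ± 1.25 to 69.1 ± 8.81 CPM), choline kinase Chka (0.29, from 13.6 ± 3.22 to 141 ± 19.99 CPM), AC125381.1 (0.31), Obp2a (0.32) and the collagen gene Col5a3 (0.34, from 6.61 ± 1.35 to 129.6 ± 24.1 CPM). Gm30906, AC125381.1 and Obp2a had at most 1 count in any Bmal1+/+ library and at most 54 in the others, so their likeness rests on the prior count of 2 that enters log2 CPM. Eps8l2 and Grk5 were near each other at 0.35, with Eps8l2 at rank 6 for Grk5 and Grk5 at rank 14 for Eps8l2. Pitx3 stood at rank 11 for Moxd1 with a difference of 1.86.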

How the data were processed

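Paired-end reads were aligned by the authors to GRCm38 (release 102) with HISAT, fragments were counted with StringTie, and the authors deposited whole-number counts without normalisation and FPKM values. The submitters' processing notes name CASAVA 1.8 and TopHat2 2.0.6 instead. The stated RNA input also differs between sources, and strand use is not stated. FPKM as deposited was the count over the library total and over a fixed gene length (11442 genes with at least 20 counts, 100% within 1%).

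Totals ranged from 14054825 to 18449143 counts per library, and 3 counts, the floor, were 0.167 to 0.213 CPM after TMM scaling, which covers counting error only. Genes were named from GENCODE M21 (GRCm38), which held 99.5% of 55487 identifiers. Counts were fitted by the quasi-likelihood test of edgeR 4.0.16 in R 4.3.3, after filterByExpr and TMM scaling, with Benjamini-Hochberg adjustment over 14353 genes. SE is that of the log2 fold change, computed as its absolute value over the square root of the F statistic of this test. P-values set the difference between the groups against the spread among the libraries of each group. They do not separate genotype from sex. Pairs of libraries with the same label differed beyond sampling noise (chi-square per degree of freedom at least 19.97), so none was a duplicate. The test was checked on simulated data.

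The study's criterion was an absolute log2 fold change above 1 with an unadjusted p below 0.05. Alternatives were DESeq2 1.42.0, upper-quartile and library-size scaling, 2 other filters (none, and at least 10 counts in every sample), a prior count of 2, a floor over the whole group, the replicate number as a block and leaving out each library. The members and lists were chosen with earlier results of these data known. Besides the 4 members, 65 genes were named by rule, of which 57 were tested: up to 5 genes per list with an adjusted p below 0.05 and no overlap between groups, the close paralogs, genes overlapping a member, the nearest tested gene on each side, and the 5 genes most like each member. The results of some genes that the rule names are not reported here. The library titled KO6 is replicate 4, as its description gives it. Plots were made in matplotlib 3.10.9 under Python 3.11.15. Promoter sequences are from RefSeq (GRCm38.p6).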

Additional observations from a re-analysis of the deposited data

Results flagged for a closer look

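In 113 groups of 4 libraries, 5 held a library far from the other 3 by Dixon's test at the 95% level, and chance gives about 1 in 20 groups. Eps8l2 was lowest in Bmal1+/+ replicate 2, at 10.0 CPM against 12.3 to 12.5 CPM in the others. Cp was highest in replicate 4 labelled Bmal1-/-, at 2877 CPM against 1306 to 1319 CPM. Adrb3 was highest in Bmal1+/+ replicate 2, at 6.97 CPM against 4.28 to 4.69 CPM. Eps8 was highest in the same library, at 5.11 CPM against 2.08 to 2.46 CPM. Grk4 was highest in replicate 3 labelled Bmal1-/-, at 2.06 CPM against 1.15 to 1.24 CPM.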

How the results depend on the processing

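The 4 genes were picked on these same libraries, so their values under the alternatives are a description and no support for the gains. The gains of Eps8l2 and Grk5 held under every alternative that was run, and with 1 library left out they were 9.29 to 10.2-fold and 13.4 to 15.4-fold. The bounds for Moxd1 and Pitx3 were then at least 1040.0 to 1939.8-fold and at least 169.7 to 254.5-fold. Both rest on the floor: with 3 counts over the whole Bmal1+/+ group they were at least 6352-fold and at least 841-fold, and their fitted log2 fold changes, 15.15 and 12.24, became 11.15 and 8.24 with a prior count of 2. With 1 library left out, called genes numbered 1706 to 2212 higher (2135 with all) and 1893 to 2502 lower (2322), those past the study's criterion 767 to 899 (776) and 1255 to 1514 (1250), family and pathway genes 11 to 15 (14) and 15 to 25 (21), and neighbours 5 to 7 (6) and 1 to 2 (1), the latter 2 without Bmal1+/+ replicate 3, where Prdx3 was also called (-0.49, edgeR adjusted p = 0.016). Genes past the criterion were 1316 and 1880 with no filter, and 828 lower with at least 10 counts in every sample. Same-numbered libraries did not deviate together (correlations of -0.06, 0.06, 0.04 and 0.04), so the samples were treated as unpaired. A weak pairing could be missed in this way. With the replicate number as a block 1809 genes were higher and 2064 lower, 759 and 1302 past the criterion, 13 and 20 of the lists, and 5 and 1 of the neighbours. Of 868 alternative values for 63 named genes 803 kept direction and call, and calls of 10 genes were lost in 53 values, with edgeR adjusted p between 0.050 and 0.128. Without Bmal1+/+ replicate 2 these were Pam, Atp7b, Baiap2l1, Rac2 and Gatd1. Losses without Bmal1+/+ replicate 1, 3 or 4 or without replicate 1, 2 or 3 labelled Bmal1-/- were among Pam, Atp7a, Abi2, Fscn1, Rac2, Abi3, Baiap2 and Gatd1, and without its replicate 4 Fscn1, Abi3, Baiap2 and Gatd1. The block ended the calls of Atp7b, Fscn1, Abi3, Baiap2 and Gatd1. Grk3 was called without replicate 4 labelled Bmal1-/- (-0.93, edgeR adjusted p = 0.042). Signs turned in 3 genes that were not called: Eps8l1 (-0.16 to 0.24 with 1 library left out), Grk2 (-0.10 to 0.065, and 0.014 with library size only) and Grk6 (-0.13 to 0.22, 0.013 with library size only and 0.025 with the block). The cause of these shifts was not tested. At this depth genes with 0 counts may hold up to 3 counts per library.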
